A study of Homo sapiens with 3 samples.

Results

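Levels are described for 58 genes of the transforming growth factor beta (TGF-beta) and bone morphogenetic protein (BMP) pathways in untreated HEK293T cells. The genes were chosen by name from a list of pathway members, and all 58 were found among the 35880 gene symbols of the expression table. They comprised 3 TGF-beta ligands, 6 ligands of the activin, inhibin and Nodal branch, 10 BMP or GDF ligands, 7 type I receptors, 4 type II receptors and 1 coreceptor. Inside the cell they comprised 5 receptor-regulated SMADs, the common SMAD, 2 inhibitory SMADs, 2 SMURF ubiquitin ligases and 2 corepressors of the SKI family. The others were 7 secreted antagonists, 4 latent TGF-beta binding proteins and the 4 ID genes.

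In this pathway a secreted dimeric ligand brings type II and type I serine/threonine kinase receptors together, and the type II receptor phosphorylates the type I receptor. The type I receptor phosphorylates receptor-regulated SMADs, which join SMAD4 and enter the nucleus: SMAD2 and SMAD3 carry TGF-beta, activin and Nodal signals, and SMAD1, SMAD5 and SMAD9 carry BMP signals. TGF-beta is secreted in a latent form held in the matrix by binding proteins, and antagonists outside the cell, inhibitory SMADs and ubiquitin ligases inside it limit the signal.

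HEK293T is an established line of human embryonic kidney cells with the SV40 large T antigen. The cells received no treatment, grew in DMEM with 10% serum and were collected at 70% confluence. Polyadenylated RNA was sequenced from 3 libraries, which the labels call biological replicates 1, 2 and 3 and which form 1 group. With no second condition, the only test across libraries was whether a gene lay above or below 1 TPM (the length-corrected share of a library's transcripts, scaled to the same total in each library), by limma with Benjamini-Hochberg adjustment over 21990 symbols above 0 in at least 1 library. Depth, estimated from the spacing of low values, was 33150000 to 33650000 reads per library. All 8 genes listed as marks of this line, such as the neurofilament gene NEFM and VIM, lay above 1 TPM. So did 58.5% of all symbols tested and 70.7% of protein-coding symbols. These 8 were chosen with earlier results of these data known, so their count is not a test of cell identity. Of 20 markers of endothelium, fibroblasts, adrenal and kidney tubule, 2 lay above (COL1A1 and LUM) and 6 were at 0 in every library, among them 3 of 4 tubule markers. In bulk RNA, fewer cells with a transcript and less transcript per cell cannot be told apart.

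The cells held transcripts for every intracellular step of both branches, while ligands and antagonists ranged from well above 1 TPM to near 0. A level above 1 TPM was called for 39 of the 58 genes (67.2%) and a level below it for 16 (27.6%), with 3 undecided and 0 at 0 in every library. The shares over all symbols tested were 58.5% above, 33.9% below and 7.64% undecided. Over the 17220 protein-coding symbols tested they were 70.7%, 23.7% and 5.57% in that order, so the share of pathway genes above 1 TPM was between these backgrounds. The median level was 7.26 TPM for the 58 genes, 4.29 TPM for all symbols tested and 10.8 TPM for protein-coding symbols. Together the 58 genes held 0.0838% ± 0.00219 of each library's TPM (SD, n = 3). By role, all 4 type II receptors, the coreceptor, all 8 SMADs, both SMURFs, both SKI family genes and all 4 ID genes lay above 1 TPM, as did 5 of 7 type I receptors and 3 of 4 latent TGF-beta binding proteins. Of the ligands, 2 of 3 in the TGF-beta class, 1 of 6 in the activin class and 4 of 10 in the BMP class lay above.

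**Figure D1:**
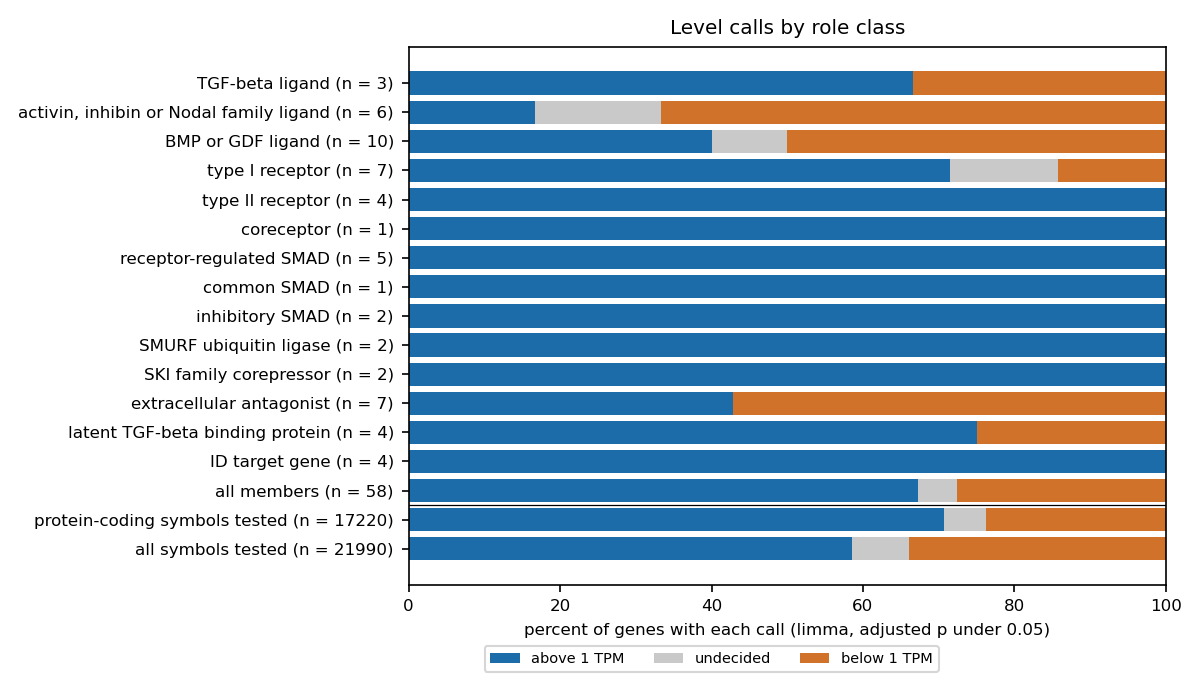
Share of genes called above 1 TPM, undecided or below 1 TPM (horizontal axis, percent) in each role class, in all 58 genes and in the 2 backgrounds. The SMAD, SMURF, SKI, type II receptor and ID classes are wholly above 1 TPM, whereas 4 of 7 antagonists and 5 of 10 BMP or GDF ligands are below.

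Of the 3 TGF-beta isoforms, TGFB1 (chr19:41301587-41353911, minus strand; hg38 coordinates from GENCODE 29) was the most abundant. It had 12.7, 12.9 and 14.5 TPM in replicates 1, 2 and 3. TGFB3 had 6.86, 4.28 and 5.90 TPM. TGFB2 had 0.398, 0.703 and 0.470 TPM. The libraries of these isoforms did not overlap, and TGFB1 exceeded TGFB2 by 4.46 ± 0.383 in log2(TPM + 0.1) within a library (SD, n = 3), or 25.5-fold in mean TPM. TGFB2 was called below 1 TPM (limma, log2 level against 1 TPM -0.96 ± 0.245 SE, adjusted p = 0.0181). That call was lost without replicate 1 (adjusted p = 0.0725) or without replicate 3 (adjusted p = 0.0751) in the same limma test. In TGFB3, protein-coding transcripts held 31.4% ± 7.81 of the gene's TPM, and short transcripts annotated as non-coding held most of the rest.

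In the activin, inhibin and Nodal branch, GDF11, a ligand closely related to myostatin that signals through activin receptors, stood far above the others. GDF11 (chr12:55743280-55757278, plus strand) had 19.3, 20.7 and 21.6 TPM. INHBB, which encodes the activin B subunit, had 1.11, 1.28 and 1.31 TPM and was undecided (limma, log2 level 0.29 ± 0.126 SE, adjusted p = 0.0807). INHBA, which encodes the activin A subunit, had 0.0297, 0.0737 and 0.0587 TPM, or about 1, 4 and 5 estimated reads. Every library had more INHBB than INHBA: the within-library difference was 3.12 ± 0.123 in log2(TPM + 0.1), but 1.08 with a pseudocount of 1 and 4.34 with 0.01, so its size depends on how near to 0 INHBA is taken to be. INHBB was called above 1 TPM once mitochondrially encoded genes were left out of the scaling (limma, adjusted p = 0.0363). It was also called above with edgeR on estimated reads (adjusted p = 0.0437) and with protein-coding transcripts only (limma, adjusted p = 0.0487). The only INHBB transcript is coding and its level was the same there, so that last change came from the other symbols in the fit. INHA, the inhibin alpha subunit, had 0.235, 0.381 and 0.365 TPM. INHBE, another beta subunit, had 0.118, 0.0752 and 0.0378 TPM. NODAL, a ligand of early embryonic patterning, was at 0 in replicates 1 and 3 and had 0.0485 TPM, about 1 estimated read, in replicate 2. INHBE overlapped INHBA and INHBA overlapped NODAL, so their ranges gave no order, although NODAL was the lowest of these 3 in each library. In this class 4 of the 6 ligands lay below 1 TPM.

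BMP7, a ligand needed for kidney and eye development, led the BMP class. The gene lies at chr20:57168748-57266629 on the minus strand. It had 36.4, 34.1 and 35.2 TPM, about 1861 to 1952 estimated reads per library. BMP4, the second ligand in order and a close relative of BMP2, had 9.02, 8.51 and 10.2 TPM. BMP7 exceeded BMP4 by 1.92 ± 0.124 in log2(TPM + 0.1), and the libraries did not overlap. BMP6, known for inducing hepcidin in the liver, had 7.68, 7.49 and 6.84 TPM, and BMP8B had 4.25, 4.44 and 4.57 TPM. These 4 ligands lay above 1 TPM in every library. BMP2 had 0.870, 0.783 and 0.884 TPM and was undecided (limma, log2 level -0.24 ± 0.146 SE, adjusted p = 0.177). Against other levels BMP2 was above 0.5 TPM (adjusted p = 0.00832) and below 2 TPM (adjusted p = 0.00127) by limma.

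The 5 BMP or GDF ligands below 1 TPM were GDF6, BMP8A, BMP3, BMP5 and GDF5. GDF6 had 0.531, 0.701 and 0.517 TPM, and BMP8A had 0.556, 0.752 and 0.401 TPM. Their libraries overlapped, and both calls were lost without replicate 1 or without replicate 3, with limma's adjusted p at 0.0656 and 0.0642 for GDF6 and at 0.107 and 0.0837 for BMP8A. BMP3, which antagonises other BMPs in bone, had 0.220, 0.180 and 0.148 TPM. BMP5 had 0.0813, 0.0998 and 0.0779 TPM. GDF5, a ligand of joint formation, was lowest at 0.0552, 0.0703 and 0.0179 TPM, or 3, 4 and 1 estimated reads. The libraries of BMP3 all lay above those of BMP5, and the libraries of BMP5 all lay above those of GDF5.

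The levels of BMP8A and BMP8B carry an added uncertainty because the genes are near copies, both on chromosome 1. Their coding sequences, 1209 bases each, were 98.2% identical, and 46.0% of the 31-base words of BMP8A also occur in BMP8B. The last 75 coding bases of each, which lie in the mature ligand part, are shown from GENCODE 29 on GRCh38 to show how little separates them. BMP8A is at chr1:39525724-39525798 on the plus strand and BMP8B at chr1:39760419-39760493 on the minus strand, and the capital marks the base that differs.
BMP8A-201: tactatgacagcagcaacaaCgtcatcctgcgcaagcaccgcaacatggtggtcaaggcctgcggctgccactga
BMP8B-201: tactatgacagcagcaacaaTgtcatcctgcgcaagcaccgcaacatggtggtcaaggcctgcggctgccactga
BMP8B exceeded BMP8A in every library, by 2.79 ± 0.408 in log2(TPM + 0.1) and by 1.79 with a pseudocount of 1. Reads from the shared stretches are divided between the copies by the authors' quantification, so the split between them is less certain than their sum.

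**Figure D2:**
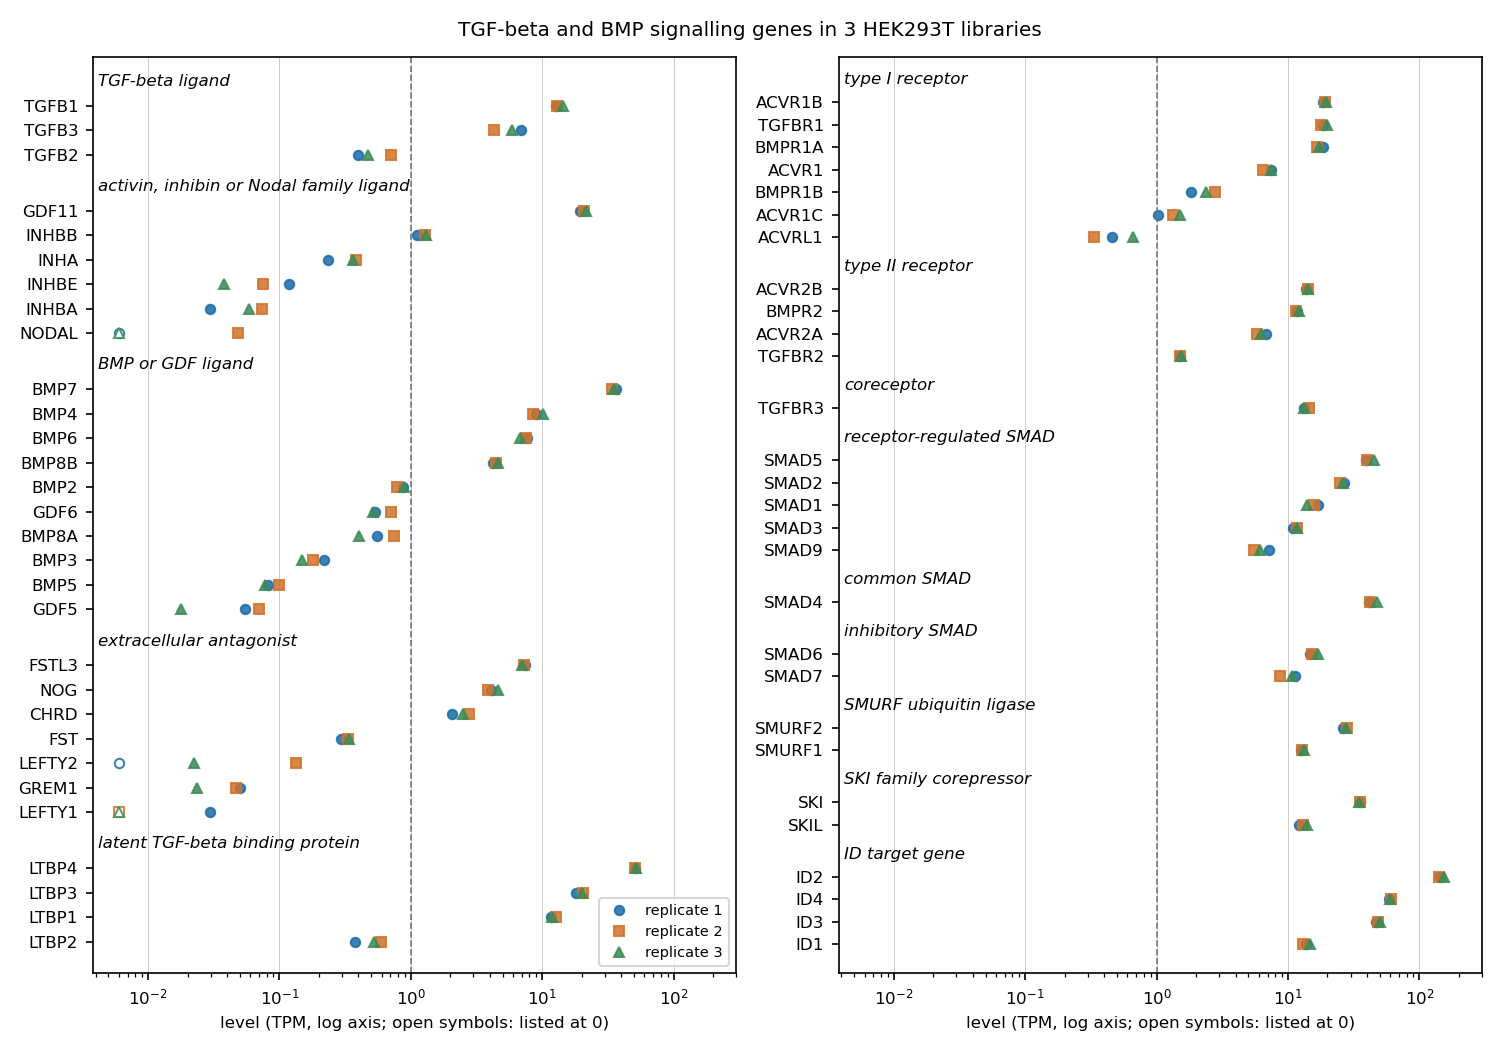
Level of each of the 58 genes in TPM (horizontal log axis) in the 3 libraries, grouped by role, with open symbols at the left edge for libraries listed at 0. The dashed line marks 1 TPM; ID2 is the highest gene at 141 to 154 TPM, and NODAL, LEFTY1 and LEFTY2 are listed at 0 in at least 1 library.

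Among type I receptors, which phosphorylate the SMADs, ACVR1B, TGFBR1 and BMPR1A had the highest totals. ACVR1B, the activin receptor ALK4, had 18.5, 19.3 and 19.4 TPM. TGFBR1, the TGF-beta receptor ALK5, had 18.6, 17.9 and 19.7 TPM. BMPR1A, the BMP receptor ALK3, had 18.6, 16.6 and 17.2 TPM. ACVR1B overlapped TGFBR1 and TGFBR1 overlapped BMPR1A, so the ranges do not separate neighbours in this order of totals. Within each library TGFBR1 was nonetheless above BMPR1A, by little in replicate 1. Protein-coding transcripts alone gave BMPR1A 6.60, 5.98 and 5.12 TPM. ACVR1, a receptor for BMPs and activins, had 7.38, 6.44 and 7.40 TPM, all of it coding, which was above the coding level of BMPR1A in each library although their ranges overlapped. ACVR1B exceeded ACVR1 by 1.42 ± 0.133 in log2(TPM + 0.1). BMPR1B had 1.82, 2.77 and 2.39 TPM, and BMPR1A exceeded it by 2.87 ± 0.375, or 7.50-fold in mean TPM. With protein-coding transcripts only, an alternative chosen after the data were seen, BMPR1A exceeded BMPR1B by 1.32 ± 0.418, or 2.54-fold. Most of that BMPR1A coding level was BMPR1A-202, a transcript of 421 bases, at 4.31, 3.91 and 2.88 TPM. It rested on about 22, 20 and 15 estimated reads. The full-length coding transcript BMPR1A-201, at 2.29, 2.07 and 2.24 TPM, was above the summed transcripts of BMPR1B in replicate 1 only. It was above the leading single BMPR1B transcript, BMPR1B-208, in every library, where BMPR1B-208 had 1.12, 1.41 and 1.09 TPM. BMPR1B was above 1 TPM (limma, adjusted p = 0.00162) but not above 2 TPM (adjusted p = 0.252).

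The other type I receptors stood near or under 1 TPM. ACVR1C, a receptor for Nodal and some activins, had 1.03, 1.34 and 1.52 TPM and was undecided (limma, log2 level 0.35 ± 0.160 SE, adjusted p = 0.0940). It was called above 1 TPM without replicate 1 (limma, adjusted p = 0.0433), without mitochondrially encoded genes (limma, adjusted p = 0.0493) and with edgeR on estimated reads (adjusted p = 0.0256). ACVRL1, the receptor ALK1 of endothelial cells, had 0.461, 0.333 and 0.659 TPM. It lay below 1 TPM (limma, log2 level -1.08 ± 0.269 SE, adjusted p = 0.0167), and the call was lost without replicate 1 (adjusted p = 0.0797) or replicate 2 (adjusted p = 0.0543). Of 5 endothelial markers 0 were above 1 TPM, 4 were below and 1 was at 0, and their summed level was 0.504, 0.252 and 0.418 TPM.

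The type II receptors had a different order, with the TGF-beta receptor last. ACVR2B, an activin and BMP receptor, had 13.7, 14.1 and 14.3 TPM. BMPR2, the BMP type II receptor, had 11.7, 11.5 and 12.1 TPM. ACVR2A had 6.80, 5.83 and 6.22 TPM, so ACVR2B exceeded its paralog by 1.15 ± 0.133 in log2(TPM + 0.1). TGFBR2, the type II receptor through which TGF-beta ligands signal (chr3:30606502-30694142, plus strand), had 1.51, 1.51 and 1.53 TPM, from 158 to 162 estimated reads. These libraries lay closer together than counting this many reads would usually give, so small SDs of differences from TGFBR2 overstate the precision. No pair of neighbours in the class overlapped. TGFBR2 was above 1 TPM (limma, log2 level 0.60 ± 0.103 SE, adjusted p = 0.00506) and below 2 TPM (adjusted p = 0.0182). TGFBR1 exceeded its partner TGFBR2 by 3.54 ± 0.0579 in log2(TPM + 0.1), or 12.3-fold in mean TPM, and BMPR2 exceeded TGFBR2 by 2.87 ± 0.0229, or 7.75-fold. TGFBR3, the coreceptor betaglycan that presents TGF-beta to TGFBR2, had 13.3, 14.4 and 13.3 TPM.

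TGFBR2 was reported as 2 coding transcripts that differ by an alternative exon, which adds a stretch to the extracellular part of the receptor. TGFBR2-201, without the exon, had 0.893, 1.33 and 1.13 TPM, and TGFBR2-202, with it, had 0.619, 0.177 and 0.397 TPM. TGFBR2-201 was higher in every library, but the share of TGFBR2-202 varied (26.2% ± 14.6 of the gene's TPM, SD, n = 3). The exon has 75 bases at chr3:30623199-30623273 on the plus strand of GRCh38 (GENCODE 29) and lies within the annotated coding sequence. It is shown in capitals with 12 bases of each neighbouring exon.
TGFBR2-202: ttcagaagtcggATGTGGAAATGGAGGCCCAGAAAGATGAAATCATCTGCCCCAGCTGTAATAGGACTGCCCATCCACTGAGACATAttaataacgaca

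BMPR1A was divided among transcripts differently in the libraries although its total was steady. BMPR1A-204 had 4.09, 9.11 and 10.1 TPM in replicates 1, 2 and 3, and BMPR1A-203 had 7.25, 1.03 and 1.14 TPM, so replicate 1 stood apart from the others. Both are annotated as targets of nonsense-mediated decay, the pathway that degrades transcripts with early stop codons, and their type held 66.2% ± 3.48 of BMPR1A TPM in all. The full-length coding transcript BMPR1A-201 had 2.29, 2.07 and 2.24 TPM and did not vary in this way. Apart from 8 bases at the end of BMPR1A-203, the pair differ by 3 bases at an exon junction outside the annotated coding sequence, shown here in capitals with 12 bases on each side. The bases shown are joined across the intron within chr10:86924630-86929311 on the plus strand of GRCh38 (GENCODE 29).
BMPR1A-204: tttgatagcaatCAGttcatgagctta
BMPR1A-203: tttgatagcaatttcatgagctta
Only reads across that junction or at that end tell the pair apart, so their sum is better determined than either value. Of the 31-base words of BMPR1A, 18.3% occur in other genes. The gene that shares the most is the pseudogene BMPR1APS1, with 9.30% of the words, which had 0.0113 TPM. The levels of the other genes that share words are not given here.

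**Figure D3:**
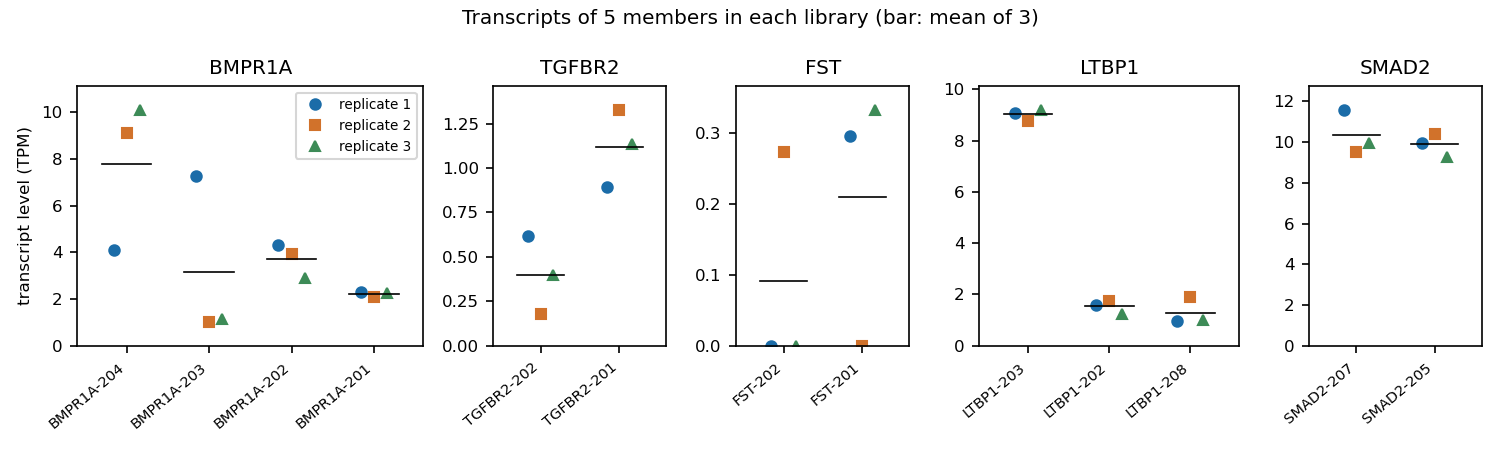
Level in TPM (vertical axis) of the leading transcripts of BMPR1A, TGFBR2, FST, LTBP1 and SMAD2 in each library, with bars at the mean of 3. In BMPR1A, replicate 1 has 4.09 TPM of BMPR1A-204 and 7.25 TPM of BMPR1A-203, whereas replicates 2 and 3 have at least 9.11 TPM and at most 1.14 TPM of them; LTBP1-203 lies at 8.78 to 9.21 TPM in all libraries.

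All 5 receptor-regulated SMADs lay above 1 TPM, and each branch had an abundant member. SMAD5, of the BMP branch, had 39.3, 40.3 and 45.0 TPM. SMAD2, of the TGF-beta and activin branch, had 26.6, 24.9 and 26.4 TPM. SMAD1 had 17.0, 15.7 and 13.9 TPM. SMAD1 and SMAD5 are close paralogs with like function, and SMAD5 exceeded SMAD1 by 1.42 ± 0.247 in log2(TPM + 0.1), or 2.67-fold in mean TPM. SMAD3, which unlike the main form of SMAD2 binds DNA directly, had 11.0, 11.7 and 11.7 TPM. SMAD2 exceeded SMAD3 in every library, by 1.18 ± 0.0925 in log2(TPM + 0.1). SMAD9, also called SMAD8, was lowest at 7.12, 5.47 and 6.08 TPM, and SMAD1 exceeded it by 1.31 ± 0.173. No neighbours in this order overlapped.

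SMAD4, the partner shared by both branches (chr18:51028394-51085045, plus strand), had 41.3, 42.1 and 47.4 TPM and ranked above 82.4% of the symbols tested. Protein-coding transcripts held 40.8% ± 2.17 of SMAD4 TPM, transcripts annotated for nonsense-mediated decay held 37.7% ± 7.43 and those with a retained intron 11.8% ± 1.05. With coding transcripts alone, SMAD4 had 17.2, 16.1 and 20.1 TPM, which stayed above 1 TPM in every library. Of the 31-base words of SMAD4, 7.06% occur in other genes, chiefly AC091551.1, an annotated gene that overlaps it on the same strand and had 0.388 TPM. SMAD2 was divided between SMAD2-207, at 11.6, 9.50 and 9.95 TPM, and SMAD2-205, at 9.98, 10.4 and 9.28 TPM. These overlapped, and SMAD2-205 led in replicate 2. In SMAD3, transcripts from the start at chr15:67065602 held 73.4% ± 1.74 of the TPM, and those from a start further downstream, at chr15:67138021, held 13.3% ± 0.492.

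The inhibitory SMADs, which block receptors and SMADs and are themselves induced by the pathway, were both above 1 TPM. SMAD7, which acts on both branches, had 11.3, 8.76 and 10.7 TPM. SMAD6, which acts mainly on the BMP branch, had 14.7, 15.3 and 17.0 TPM. Their libraries did not overlap, and SMAD7 minus SMAD6 was -0.61 ± 0.212 in log2(TPM + 0.1). With protein-coding transcripts only, SMAD7 had 7.96, 6.51 and 7.43 TPM and SMAD6 had 7.78, 7.88 and 8.49 TPM. These libraries overlapped, SMAD7 was the higher in replicate 1, and the difference was -0.14 ± 0.157. For SMAD6, protein-coding transcripts held 51.5% ± 1.58 of the TPM and a long non-coding transcript of the gene, SMAD6-205, 43.0% ± 2.30. The SMURF genes encode ubiquitin ligases that SMAD7 brings to the receptors. SMURF1 had 12.6, 12.8 and 13.2 TPM and SMURF2 had 26.4, 28.4 and 27.7 TPM. SMURF1 minus SMURF2 was -1.09 ± 0.0497 in log2(TPM + 0.1), with no overlap.

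Promoters were searched for the palindromic SMAD-binding element GTCTAGAC, to which SMAD3 and SMAD4 bind, since the inhibitory SMADs and other members are known pathway targets. Windows of 300 bases around RefSeq starts (GRCh38.p14) were found for 48 of the 58 genes, 81 windows in all. The element, which reads the same on both strands, occurred in 1 of the 81 windows and in 71 of all 35116 windows (0.202%). That window is the SMAD6 promoter, where the element begins 12 bases before the start, at chr15:66702184-66702261 on the plus strand with the element in capitals.
SMAD6 promoter: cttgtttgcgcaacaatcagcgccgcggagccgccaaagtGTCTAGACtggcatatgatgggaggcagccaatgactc
A match is a description of these letters, and binding was not measured.

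SKI and SKIL encode corepressors that bind SMAD complexes, and SKIL (SnoN) is itself a TGF-beta target. SKI had 35.2, 35.3 and 34.9 TPM, a coefficient of variation (CV) of 0.609%. SKIL had 12.1, 13.1 and 14.0 TPM. Every library had more SKI than SKIL, with a difference of 1.42 ± 0.108 in log2(TPM + 0.1) and 2.69-fold in mean TPM. With protein-coding transcripts only, the difference was 2.07 to 2.16 over the libraries, or 4.41-fold in mean TPM.

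Of the antagonists that hold ligands outside the cell, 3 of 7 lay above 1 TPM and 4 below. FSTL3, which binds activins and GDF11, had 7.35, 7.24 and 6.98 TPM. NOG, which encodes the BMP antagonist noggin, had 4.06, 3.90 and 4.64 TPM. CHRD, which encodes chordin, had 2.05, 2.78 and 2.51 TPM. No neighbours among these overlapped, but CHRD rested largely on transcripts with a retained intron (54.7% ± 11.9 of its TPM). With protein-coding transcripts only, CHRD lay at a log2 level of -0.20, and it was no longer called (limma, adjusted p = 0.426). The exons of CHRD also overlap those of THPO on the opposite strand over 361 bases, and THPO had 1.62 TPM.

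FST, which encodes the activin antagonist follistatin, had 0.295, 0.330 and 0.338 TPM. FST minus FSTL3 was -4.12 ± 0.113 in log2(TPM + 0.1), or -2.63 with a pseudocount of 1, and every library had less FST. The transcript assigned to FST was FST-201 in replicates 1 and 3, at 0.295 and 0.333 TPM, and FST-202 in replicate 2, at 0.273 TPM, each with the other at 0. FST had 16 to 18.5 estimated reads per library, and the cause of that alternation was not tested. GREM1, the BMP antagonist gremlin, had 0.0505, 0.0468 and 0.0238 TPM.

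LEFTY1 and LEFTY2, antagonists of Nodal, had a few estimated reads at most. LEFTY1 had 0.0298 TPM, 1 estimated read, in replicate 1 and was at 0 in the others. LEFTY2 was at 0 in replicate 1 and had 0.135 and 0.0222 TPM in replicates 2 and 3, or 5 and 1 estimated reads. LEFTY1 minus LEFTY2 was -0.38 ± 0.807 in log2(TPM + 0.1) with overlapping libraries and 0.043 without replicate 2, so they have no order. They are neighbouring near copies on chromosome 1 whose 1101 coding bases were 97.2% identical. In addition, 45.9% of the 31-base words of LEFTY1 occur in AL117348.2, an annotated gene that overlaps it on the same strand and had 0.0350 TPM. Both LEFTY genes were called below 1 TPM (limma, adjusted p = 0.00167 for LEFTY1 and 0.00666 for LEFTY2).

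Of the latent TGF-beta binding proteins, LTBP4 (chr19:40592883-40629818, plus strand) was the most abundant at 50.8, 50.6 and 51.5 TPM, a CV of 0.913%. LTBP3 had 18.2, 20.4 and 20.1 TPM, and LTBP1 had 11.7, 12.8 and 11.9 TPM. LTBP2, which unlike the others does not bind latent TGF-beta, had 0.378, 0.593 and 0.524 TPM. No neighbours overlapped: LTBP3 exceeded LTBP1 by 0.68 ± 0.0573 and LTBP4 exceeded LTBP2 by 6.43 ± 0.275 in log2(TPM + 0.1). The LTBP4 total rested mostly on transcripts with a retained intron, which held 61.2% ± 3.97, while coding transcripts held 32.5% ± 3.73, or 14.6, 16.6 and 18.6 TPM. The coding transcripts of LTBP3 had 13.0, 14.7 and 16.0 TPM, which overlapped those of LTBP4. With protein-coding transcripts only, LTBP3 exceeded LTBP1 by 0.27 ± 0.155 in log2(TPM + 0.1), or 1.21-fold in mean TPM, still without overlap. LTBP1 is known to have a long and a short form made from different start sites. Transcripts from the upstream start had 9.02 ± 0.220 TPM (74.6% ± 5.32 of the gene's TPM), and those from the downstream start had 1.61 ± 0.373 TPM (13.2% ± 2.58). The upstream start was higher in every library. The sequences at both RefSeq starts (GRCh38.p14, plus strand) are shown from 100 bases before the start, with the first 20 transcribed bases in capitals, at chr2:32946853-32946972 for the upstream start and chr2:33134496-33134615 for the downstream start.
LTBP1 upstream start: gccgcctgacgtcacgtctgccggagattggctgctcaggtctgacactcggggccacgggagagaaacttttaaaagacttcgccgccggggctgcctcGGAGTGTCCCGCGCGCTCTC
LTBP1 downstream start: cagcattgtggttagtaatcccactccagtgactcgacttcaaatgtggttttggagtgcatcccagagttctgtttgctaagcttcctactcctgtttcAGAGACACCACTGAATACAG

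The ID genes, which encode inhibitors of basic helix-loop-helix transcription factors and are established BMP targets, included the most abundant transcripts of the list. ID2 (chr2:8678845-8684453, plus strand) had 143, 141 and 154 TPM and ranked above 95.3% of the symbols tested. ID4 had 58.9, 60.9 and 59.4 TPM, and ID3 had 47.0, 48.2 and 50.2 TPM. ID1, the member most widely used as a BMP readout, was the lowest at 13.8, 13.0 and 14.7 TPM. All neighbours in this order were separated. ID1 minus ID2 was -3.39 ± 0.0358 and ID1 minus ID3 was -1.80 ± 0.0682 in log2(TPM + 0.1). ID3, SMURF1 and GREM1 each had transcripts entered more than once with identical values, such as ID3-201 at 22.1, 22.5 and 23.5 TPM in each of 2 entries, so for them only the sum can be read.

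**Figure D4:**
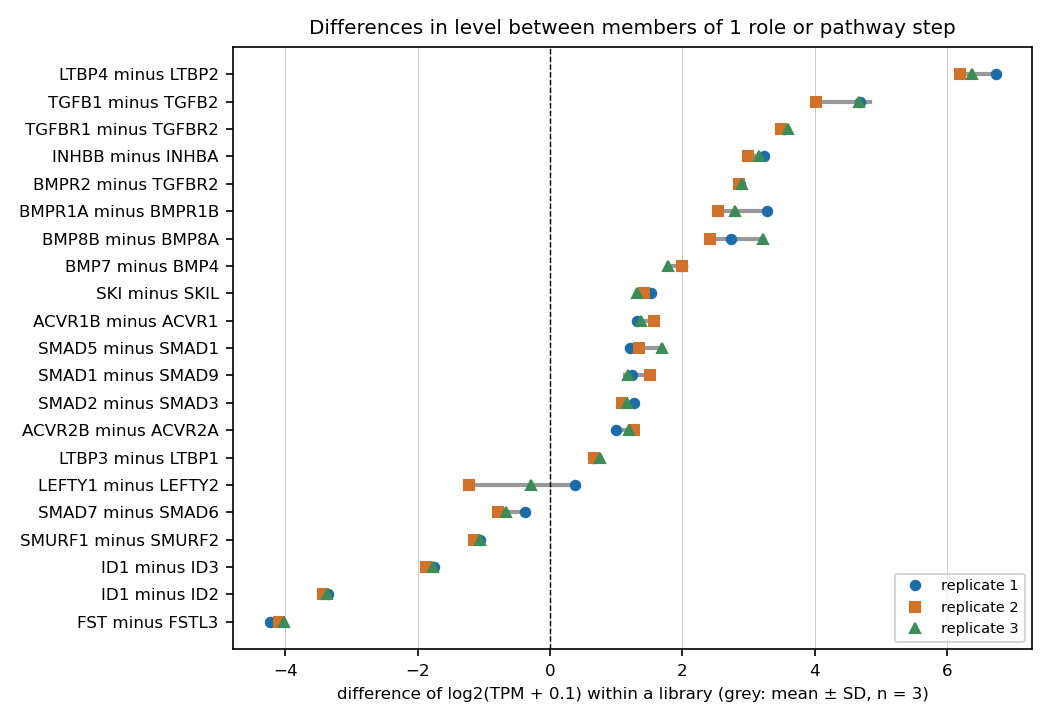
Difference in log2(TPM + 0.1) between the first and second gene of 21 pairs (horizontal axis) in each library, with grey bars for mean ± SD. In 20 pairs the summed levels of the genes do not overlap between libraries and all 3 differences have the same sign; LEFTY1 minus LEFTY2 has both signs.

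The spread between libraries was low for most of these genes. For the 41 genes of at least 1 TPM the median CV was 5.85%, against 4.54% for all symbols of that level. At 5 TPM and above it was 5.45%, against 3.71%. The spread depends on level, and 21 of the 41 genes lay above the median CV of symbols of like level and 6 above the upper quartile. TGFB3, at a CV of 23.0%, stood out most, and SMAD7, at 12.9%, also lay above the quartile band. In TGFB3 the processed transcripts, a non-coding type, had 5.02, 2.46 and 3.95 TPM, while the coding transcripts had 1.63, 1.69 and 1.82 TPM. TGFBR2, at 0.864%, was among the lowest, but with 158 to 162 estimated reads per library, counting alone would usually give a larger spread.

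**Figure D5:**
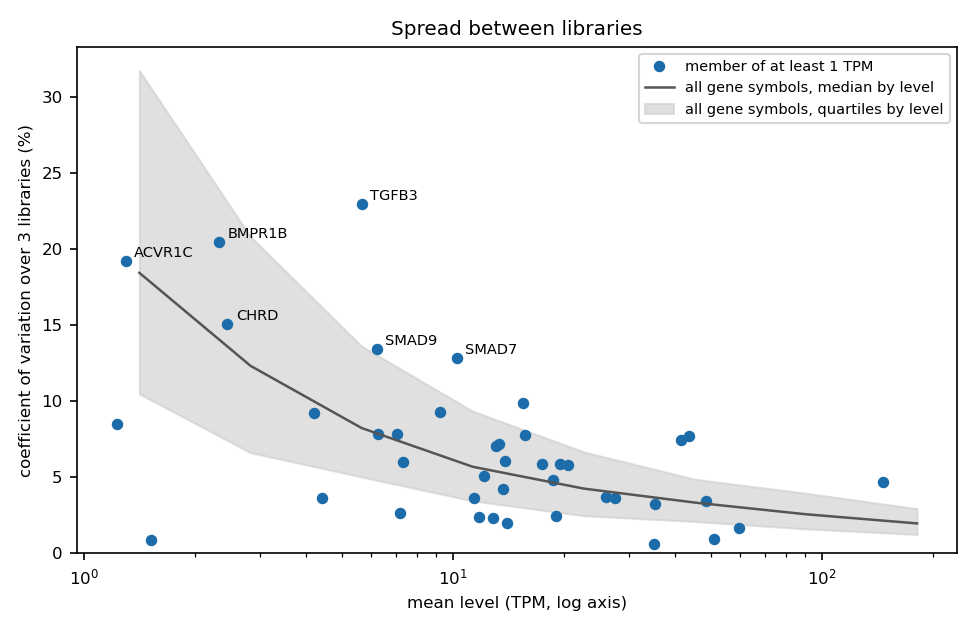
Coefficient of variation over the 3 libraries (vertical axis, percent) against mean level (horizontal log axis, TPM) for the 41 genes of at least 1 TPM, over the median and quartiles of all symbols by level. TGFB3 at 23.0% lies furthest above the band of its level.

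At 5 TPM or more, 32 of these genes had several transcripts, and 26 of them (81.3%) had the same most abundant transcript in every library, against 87.3% of 10081 symbols chosen the same way. The 6 that did not were TGFB3, TGFBR1, BMPR1A, BMPR2, SMAD2 and SMAD4. In BMPR2 the leading transcripts were BMPR2-202, at 5.78, 6.11 and 5.55 TPM, and BMPR2-204, at 5.53, 5.07 and 5.99 TPM, both coding. Protein-coding transcripts held a median of 91.5% of the TPM in members of at least 5 TPM and 85.7% in 10326 coding genes of that level. They held under 50% in 4 members (TGFB3, BMPR1A, SMAD4 and LTBP4) and in 12.3% of the coding genes.

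Some members share exonic bases with a gene on the opposite strand. The kit keeps strand, but the strand setting of the quantification is not given in the sources used here, so reads from these stretches may belong to either gene. The overlaps covered 6.64% of TGFB1 exons with HNRNPUL1 (207 TPM), 4.46% of GDF11 with SARNP (124 TPM), 6.35% of ACVR2A with ORC4 (53.4 TPM) and 11.7% of SMURF1 with TRRAP (39.5 TPM). The share was 15.8% for BMP8A with PPIEL (5.72 TPM) and 35.2% for GDF5 with GDF5OS (0.0691 TPM). Smaller shares included 1.66% of BMP8B with PPIE (69.5 TPM) and 2.40% of SMURF2 with CEP95 (59.3 TPM). Their part in the levels was not tested.

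A further 85 genes of the pathway outside the 58 were counted in the same way. Here 51 (60.0%) were called above 1 TPM, against 58.5% of all symbols tested and 70.7% of protein-coding symbols, and 20 below it, with 8 undecided and 6 at 0 in every library. All 12 cytoplasmic regulators lay above, from PMEPA1, a target that restrains the pathway, at 6.66 ± 0.610 TPM, to FKBP1A, which binds type I receptors, at 309 ± 9.33 TPM (SD, n = 3). Of 12 nuclear partners 10 lay above: E2F4, a partner in repression of MYC, was highest at 79.2 ± 2.76 TPM, and FOXH1, the Nodal pathway factor, was lowest at 0.164 ± 0.0195 TPM. Of 14 genes of ligand processing and release 9 lay above, with the proprotein convertase PCSK6 highest at 54.8 ± 2.04 TPM and the latent TGF-beta activator THBS1 the lowest detected at 0.0951 ± 0.0201 TPM.

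Of 12 other ligands 2 lay above, 4 below, 2 were undecided and 4 were at 0. AMH, anti-Müllerian hormone, had 36.7, 35.8 and 39.0 TPM, above every ligand of the 58 in each library, although its range overlapped that of BMP7. INHBC was the lowest detected at 0.0469 ± 0.0235 TPM. Of 10 other receptors or coreceptors 4 lay above, with the repulsive guidance molecule receptor NEO1 highest at 23.1 ± 1.84 TPM and CFC1, a Nodal coreceptor, lowest at 0.0314 ± 0.0544 TPM. Of 11 other antagonists 5 lay above, with FSTL1, a follistatin-like protein, highest at 65.4 ± 4.32 TPM and CER1, which binds Nodal and BMPs, the lowest detected at 0.0138 ± 0.0238 TPM. Among 14 widely used target genes the calls were 9 above, 3 below and 2 undecided. HES1 was highest at 25.8 ± 0.540 TPM, and TGFBI, named for its induction by TGF-beta, was lowest at 0.0171 ± 0.0297 TPM.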

How the data were processed

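Polyadenylated RNA of 3 untreated HEK293T libraries was prepared with a strand-keeping kit, per the labels' protocols, and quantified with kallisto on hg38, per the submitters' processing notes. Its version, options, strand setting and transcript release are not given in the sources used here. Per the file headers, the authors deposited TPM for each transcript and library and a single column of estimated counts. That deposited estimated count column names no library (its values match replicate 1 within a relative difference of 1.08e-05), so counts were not the basis of the test. TPM was summed by gene symbol. Levels were tested with limma 3.58.1 (R 4.3.3) on log2(TPM + 0.01) against 1 TPM, two-sided, calling an adjusted p under 0.05. The labels do not say what separates the biological replicates, so p-values rest on variation between these libraries only. Limma moderates the variance of each gene toward a trend over all symbols. The SEs and p-values therefore do not reflect a gene's own spread alone. Reads were estimated from TPM, effective length and a depth found from the spacing of low values, where 20.8% to 22.2% of them were whole to within 0.02 reads and chance gives 4%, and were used with edgeR 4.0.16 as an alternative. The depth search and the level test were tested on simulated data. Pairs were compared within libraries on log2(TPM + 0.1), which understates differences of low genes, with no p, since the pairs were chosen with earlier results known. By identifier, 90.4% of transcripts matched GENCODE 29, which may not be the authors' release, and 10 of 389 member transcripts did not. Values are given for the highest and lowest gene of each role, undecided genes, genes whose call changed under an alternative and both genes of each pair; of other pathway genes the highest and lowest of each class are named. Transcripts, start sites and sequences shown were chosen after their values were seen. The 58 genes, pairs and lists were chosen with earlier results of these data known. The blood markers are not reported here.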

Additional observations from a re-analysis of the deposited data

How the results depend on the processing

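Under the alternatives in which a gene was tested, calls held for 45 of the 58 genes and changed for 13. Of those 13 genes, 7 changed with the level kept at 1 TPM. The 45 include 8 members that were not tested among symbols of at least 0.1 TPM. NODAL and LEFTY1 are among these 8, and each was also untested where its only library above 0 was left out. TMM and median-of-ratios scaling and pseudocounts of 0.1 and 1 changed no member's call. The count above 1 TPM was 39 and stayed between 39 and 41 with the level kept at 1 TPM. Against other levels, 42 members lay above 0.5 TPM and 36 above 2 TPM. The count below, 16, was 9 against a level of 0.5 TPM and 8 among symbols of at least 0.1 TPM, where 8 members were not tested. Over all symbols, 7454 below 1 TPM became 3493 with that filter and 4189 with protein-coding transcripts only, where fewer were tested. Against 0.5 TPM the log2 level was 0.026 for TGFB2, 0.75 for BMP2, 0.14 for BMP8A and 0.20 for GDF6. Against 2 TPM it was -0.70 for INHBB, -0.64 for ACVR1C and -0.40 for TGFBR2. With protein-coding transcripts only, CHRD lay at -0.20; the cause was not tested beyond its transcript types. LEFTY1 minus LEFTY2 ran between -0.76 and 0.043 with a replicate left out. With protein-coding transcripts only, added for the pairs after the data were seen, 0 of 21 pairs reversed, 12 moved by more than 1 SD and 1, SMAD7 and SMAD6, came to overlap. Leaving out 1 replicate gave 39 to 40 members above and 11 to 14 below, and over all symbols 12720 to 12731 above and 5359 to 5631 below. NODAL without replicate 2 and LEFTY1 without replicate 1 were at 0 in both libraries left. No paired analysis was possible because all libraries form 1 group. Levels of a few estimated reads, as in NODAL, GDF5 and LEFTY1, are limited by depth.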
